A study of Acomys cahirinus and Mus musculus with 24 samples.

Results

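The libraries of these classes were chosen by their Acta1 level. Among the 8 mouse wound libraries of this series, 3 held almost no skeletal muscle transcripts and 5 held them at a substantial level. A library was counted as muscle-free when Acta1, the skeletal muscle alpha-actin gene, was below 10 counts per 1000000 (CPM, with spike-in RNAs left out of the library total), and as muscle-containing otherwise. The 3 muscle-free libraries were replicate 3 of day 7 and replicates 2 and 3 of day 14. The 5 muscle-containing libraries were replicates 1, 2 and 4 of day 7 and replicates 1 and 4 of day 14. They are 8 of the 24 samples of the series. The classes come from a measured value and not from a treatment: nothing in the labels separates these animals, and a p-value below is that of an association with the Acta1 class in these libraries.

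All samples described here were dorsal skin of adult outbred CD-1 mice (Mus musculus). Full-thickness excisional wounds were taken 7 or 14 days after wounding, with 4 libraries per day, and 3 libraries of unwounded day 0 skin (replicates 1, 2 and 4) served as reference levels. Whether equal replicate numbers at different days mark the same animal is not given in the sources used here, and the p-values measure only the spread between these samples, which may be technical. Skin and wounds of Acomys cahirinus, the African spiny mouse, with 4 libraries at each of days 0, 7 and 14, are used once, as levels. Total counts of the wounds were 9339214 to 13188137 per library, of which 1.11 to 1.54% were spike-in RNAs. In bulk tissue, fewer cells of a type and less RNA per cell cannot be told apart.

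Mouse back skin lies on a thin sheet of striated muscle, the panniculus carnosus, which a full-thickness wound cuts through. Muscle fibres are built of sarcomeres, in which myosin thick filaments pull on actin thin filaments anchored at Z discs, with titin spanning the filaments, and contraction is switched on by calcium released from the sarcoplasmic reticulum. New fibres come from satellite cells, which express Myod1 and Myog as they differentiate and pass through embryonic and perinatal myosins (Myh3 and Myh8) before adult myosins. Adult fast fibres use Myh1, Myh2 and Myh4, and slow fibres use Myh7.

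Acta1 lies at chr8:123891769-123894751 (minus strand, GRCm38, GENCODE vM21; the submitters' notes name mm9). Its level was 3211, 3757 and 3391 CPM in the 3 skin libraries. It was 290.5, 478 and 304 CPM in day 7 replicates 1, 2 and 4, and 3.88 CPM in replicate 3. At day 14 it was 789.7 and 235 CPM in replicates 1 and 4, and 1.87 and 3.75 CPM in replicates 2 and 3. No wound lay between 3.88 and 235 CPM, so the limit of 10 CPM fell in a wide gap, and even the muscle-containing wounds stayed well under skin. Because the classes rest on Acta1, a related actin is shown for how alike the genes are. Actc1 (the cardiac actin, also made in young fibres) matches Acta1 at 86.2% of the 1134 coding bases, but the longest identical run is 29 bases, against reads of 150 bases. The run, read from GENCODE transcripts as the Acta1 coding strand, starts at coding base 964:
Actc1 run: ctggctcccagcaccatgaagatcaagat

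The other fibre genes followed the same classes, which the choice by Acta1 fixes in part, so they are described with no test. Over the 6 lists of fibre genes (thick filament, thin filament, Z disc and titin, calcium handling, energy metabolism, dystrophin complex), 96 of the 104 members tested were lower in every muscle-free library than in every muscle-containing library of the same day. Over all genes tested that share was 7.71% (1197 of 15529). The 8 fibre genes that overlapped were Actc1, Dmd, Dysf, Murc, Myh7, Myl2, Myl3 and Sgcd. The muscle lists together took 6.86 to 8.20% of counts in skin, 0.591 to 2.31% in muscle-containing wounds and 0.0404 to 0.0456% in muscle-free wounds.

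**Figure D1:**
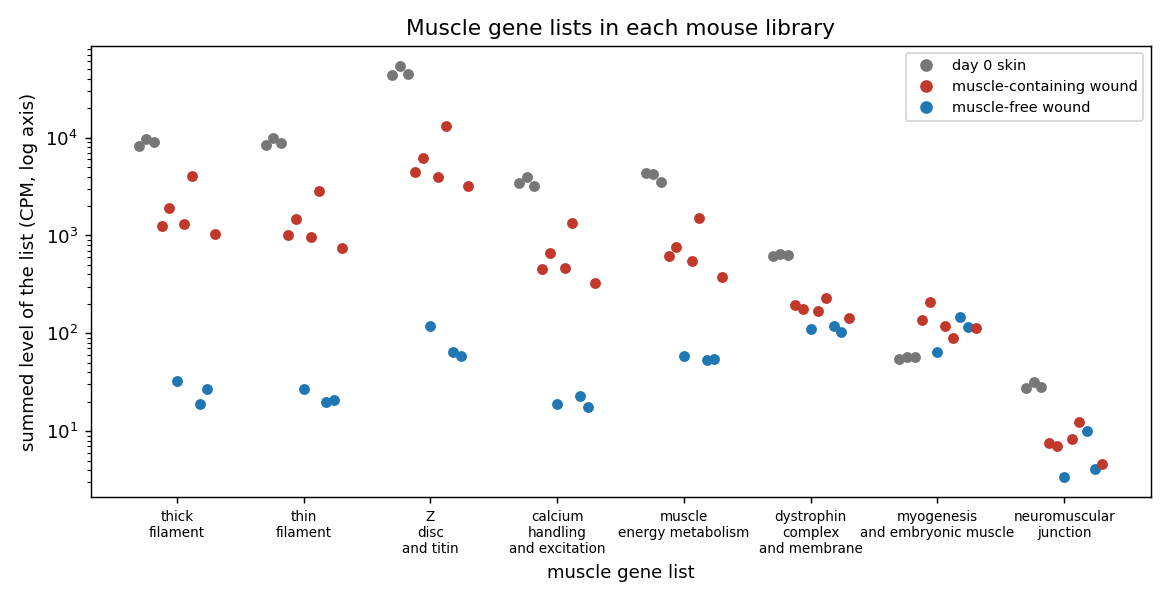
Summed level of each of the 8 muscle gene lists in every mouse library, in CPM on a log axis, 1 point per library. In the thick filament list the 3 muscle-free wounds lie at 18.9 to 32.2 CPM, the 5 muscle-containing wounds at 1031 to 4008 CPM and the 3 skin libraries at 8268 to 9781 CPM, while the classes overlap in the myogenesis and neuromuscular junction lists.

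Structural genes and the creatine kinase of muscle differed widely. Ttn, which encodes titin, was at 39545, 48322 and 39664 CPM in skin. Its level was 3865, 5351 and 3447 CPM in the muscle-containing wounds of day 7 and 11799 and 2797 CPM in those of day 14, against 62.3 CPM in the muscle-free wound of day 7 and 18.9 and 23.1 CPM in those of day 14. No muscle-free value came near a muscle-containing one, and the class means differed 157-fold. Ckm, the muscle creatine kinase that buffers ATP, was at 212, 256 and 206 CPM at day 7 and 686 and 135 CPM at day 14 in muscle-containing wounds. It was at 2.48, 0.326 and 1.28 CPM in the muscle-free wounds, and the class means differed 219-fold. Mylpf, a fast myosin light chain, and Tnnt3, the fast troponin T, differed 88.3-fold and 80.1-fold between the class means.

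Genes used by other cells as well differed less. Des, the desmin gene, which smooth muscle also expresses, was at 58.5 to 182 CPM in muscle-containing wounds and at 16.7 to 32.1 CPM in muscle-free wounds. Pfkm, the muscle-type phosphofructokinase of glycolysis, was at 37.1 to 100.2 CPM and at 13 to 14.8 CPM. The summed energy metabolism list differed 13.7-fold between class means, and the dystrophin complex list 1.64-fold, with Dmd at 33.1 to 66.9 CPM in muscle-containing and 18.6 to 35.5 CPM in muscle-free wounds.

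The myosins of the muscle-containing wounds were not in the proportions of skin. In skin Myh1 made up 67.8, 79.6 and 79.2% of the 6 myosin heavy chain genes summed (Myh1, Myh2, Myh4, Myh7, Myh3 and Myh8), and Myh4, the fastest adult type, 22.6, 12.4 and 9.57%. In the muscle-containing wounds Myh4 made up 54.7, 55.9 and 63% at day 7 and 73.3 and 59.1% at day 14, above every skin library. The share of Myh1 was 12.5 to 33.5%, below every skin library. The shares were not tested, and those of the muscle-free wounds, with 18.9 to 32.2 CPM over the whole thick filament list, are not given.

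**Figure D2:**
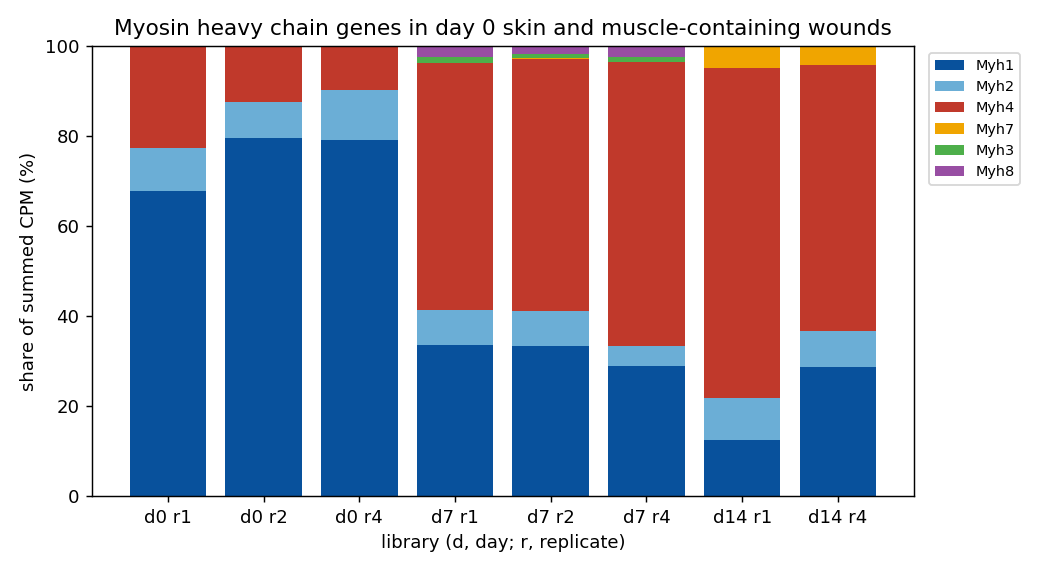
Share of each myosin heavy chain gene in their summed CPM, in percent, 1 bar per skin or muscle-containing wound library. Myh4 takes 9.57 to 22.6% in skin and 54.7 to 73.3% in the 5 wounds, and Myh7 is visible in the 2 day 14 wounds.

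Slow-fibre genes appeared in the muscle-containing wounds of day 14. Myh7 was at 139 and 31.3 CPM in replicates 1 and 4 of day 14. It was at 0, 2.53 and 0.299 CPM in the muscle-containing wounds of day 7, at 0.212 to 0.699 CPM in the muscle-free wounds and at 0 to 0.184 CPM in skin. Tnnt1, the slow troponin T, was at 25.1 and 6.22 CPM in the same day 14 wounds, at 1.2 to 2.61 CPM in those of day 7, and at 0.434 to 0.732 CPM in muscle-free wounds. Both slow genes were above every skin library in the muscle-containing day 14 wounds. The slow genes were picked out after their values were seen.

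Embryonic and perinatal muscle genes were higher in the muscle-containing wounds of day 7 than in the muscle-free one, and low in all wounds of day 14. Myh3 was at 11.4, 12 and 9.87 CPM in the muscle-containing wounds of day 7, at 0.466 CPM in the muscle-free wound of that day, and at 0.384 to 1.3 CPM in the wounds of day 14. Myh8 was at 22, 25.9 and 24 CPM at day 7, at 0.161 CPM in the muscle-free wound, and at 0.406 to 1.97 CPM at day 14. Myog, a regulator of fibre differentiation, was at 2.79, 2.52 and 2.29 CPM against 0.233 CPM at day 7. Day 7 has only 1 muscle-free library. Myh3 in skin was at 0.409 to 0.625 CPM, so the muscle-containing wounds of day 7 were above skin in these young-fibre genes while far below it in Ttn. Of the 17 genes of the myogenesis list 11 were tested and 2 were separated as lower at both days, against 7.71% of all genes tested. Chrna1, an acetylcholine receptor subunit, was at 0.828 to 3.73 CPM in muscle-containing wounds and at 1.07 to 2.28 CPM in muscle-free wounds. None of the 4 tested neuromuscular junction genes separated the classes. With 11 and 4 genes tested, these counts are too small to set against the share over all genes.

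The same libraries also differed in a way not tied to muscle. Several genes followed the replicate number at all 3 days, unwounded skin included. Skint3, a butyrophilin-like gene of skin keratinocytes, was at 59.9 CPM in skin replicate 2 and at 0 in skin replicates 1 and 4. It was at 11.4 and 35.2 CPM in replicates 2 and 3 of day 7 and at 0 in replicates 1 and 4. At day 14 it was at 18.5 and 56.7 CPM in replicates 2 and 3 and at 0.0952 and 0 in replicates 1 and 4. Glo1, the glyoxalase gene, was at 128 to 175 CPM in every library numbered 2 or 3 and at 62.3 to 78.8 CPM in every library numbered 1 or 4. By a rule set after these values were seen (every library of one side more than 1.2-fold above every library of the other, mean of at least 10 CPM), 11 genes separated numbers 2 and 3 from 1 and 4 over the 11 libraries. By the same rule 8 genes separated numbers 1 and 3 from 2 and 4, and 2 genes separated 1 and 2 from 3 and 4. All of these counts are out of the 15529 genes tested. How many genes would separate such groupings by chance was not tested. All 3 muscle-free libraries are numbered 2 or 3, and 4 of the 5 muscle-containing libraries are numbered 1 or 4. At day 14 the class and these numbers cannot be told apart, and at day 7 only replicate 2, which is muscle-containing, separates them.

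Outside the muscle lists, 31 genes were lower and 2 were higher in the muscle-free wounds (edgeR's quasi-likelihood test with wound day as covariate, Benjamini-Hochberg adjusted p under 0.05 over all 15529 genes tested). That is 0.201% and 0.013% of the 15410 genes outside the lists, and over all genes tested 0.586% were lower. These calls lean on the muscle genes in the same adjustment: adjusted over the genes outside the lists alone, 0 genes passed and the lowest adjusted p was 0.0996, with 1796 genes (11.7%) at an unadjusted p under 0.05. Of the 33 genes, 33 kept their direction and 0 passed with a term for replicate numbers 2 and 3 in the fit (adjusted p 0.13 to 0.662). None passed either without day 7 replicate 1, day 7 replicate 3, day 14 replicate 2 or day 14 replicate 3.

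**Figure D3:**
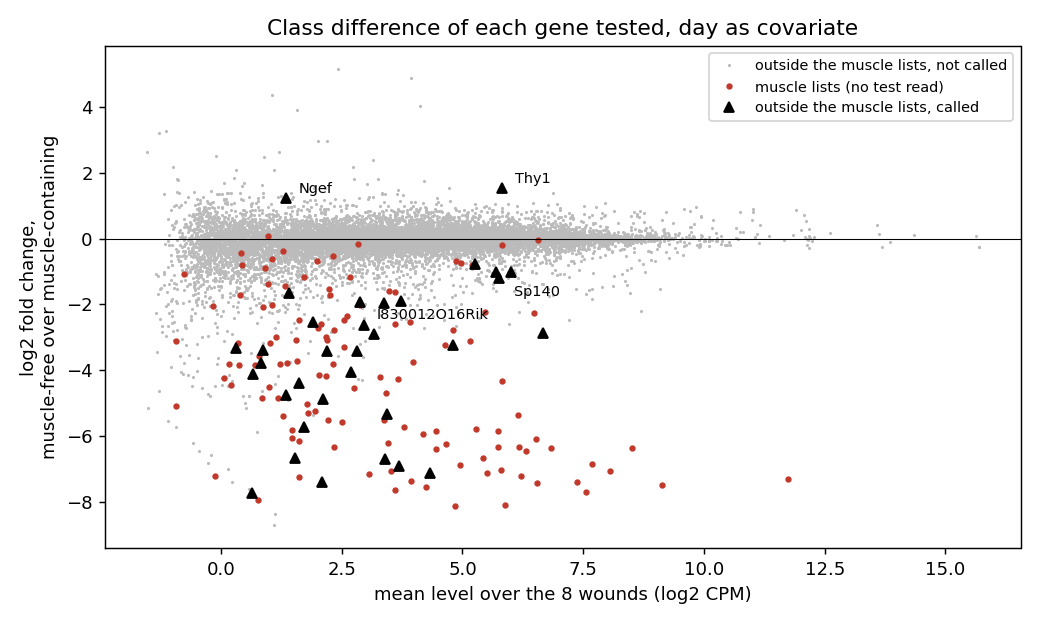
Log2 fold change of muscle-free over muscle-containing wounds against mean level in log2 CPM for each gene tested, with wound day as covariate. Muscle list genes (red) reach below -8, while most genes outside the lists lie close to 0 and the 33 called ones (triangles) lie mostly among the muscle genes.

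Most of the 31 lower genes are known from muscle fibres although they were in no list. Of these 31 genes, 24 were higher in every skin library than in every wound, as 96 of the 119 muscle list genes tested were, against 27.4% of all genes tested. In spiny mouse skin and wounds, 21 of these 24 were lower in all day 7 libraries than in any day 0 or day 14 library, against 13.2% of the 14592 genes found in both tables. That background was not limited to genes highest in mouse skin, as the 24 were, so the shares are of unlike sets. Ppp1r3a, which targets a phosphatase to muscle glycogen, was at 147, 183 and 141 CPM in skin, at 13.3, 20.2 and 13.3 CPM in the muscle-containing wounds of day 7 and at 28.1 and 7.14 CPM in those of day 14. It was at 0.233, 0.109 and 0.0915 CPM in the muscle-free wounds (log2 fold change -6.69). As for the list genes, the choice by Acta1 fixes such differences in part, so no p is read for muscle genes among the 31. Klhl31, Apobec2, Myo18b, Fsd2 and Ky, all genes of striated muscle, had log2 fold changes of -7.13, -6.93, -5.33, -4.89 and -4.77, which rest on few counts in the muscle-free wounds: Klhl31 was at -8.73 without day 7 replicate 3. Hfe2 and Art1 were at 0.0776 CPM each in the muscle-free wound of day 7 and at 0 in both of day 14, against 2.84 to 13.3 CPM and 1.61 to 6.47 CPM, and no fold is given for them. Col22a1, a collagen of muscle-tendon junctions, had no count in the 3 muscle-free libraries and 1.2 to 3.33 CPM in the 5 others, so no fold is given.

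The other 7 lower genes were not highest in skin, and 0 of these 7 followed the day 7 pattern in spiny mice. Col22a1 and Igfn1 are muscle genes. Igfn1 was at 16.3 and 5.3 CPM in the muscle-containing wounds of day 14 and at or below 0.0811 CPM in skin. The remaining 5 (I830012O16Rik, Sp140, Samsn1, Pik3ap1 and Sh2d3c) are named because they are the rest of this group, chosen after their values were seen, and include genes of white blood cells. Sp140, a nuclear body protein of immune cells, was at 91.7, 101 and 84 CPM against 52.3 CPM at day 7, and at 36 and 37.4 CPM against 12.6 and 13.7 CPM at day 14 (log2 fold change -1.19, SE 0.14, adjusted p = 0.0164 in edgeR's quasi-likelihood test). For Sp140 the same test gave an adjusted p of 0.0996 over the genes outside the muscle lists alone, and 0.176 with the term for replicate numbers. Samsn1, an adaptor of B cells and other leukocytes, was at 124, 99.5 and 85.2 CPM against 61 CPM at day 7, and at 12.9 and 12.7 CPM against 5.43 and 5.03 CPM at day 14. For Sp140, Samsn1, Pik3ap1 and Sh2d3c day 7 replicate 2 lay nearer the other muscle-containing wounds than the muscle-free one. The class test that chose these genes counts replicate 2 as muscle-containing, so this placement is partly fixed by the choice. I830012O16Rik was at 7.46, 4.53 and 7.98 CPM in day 7 replicates 1, 2 and 4 against 1.37 CPM, so replicate 2 lay in between, and its log2 fold change was -2.62, and -1.88 with the term for replicate numbers. All 31 lower genes separated the classes at both days, against 7.13% of the genes outside the muscle lists, but the class test that chose them favours this.

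Thy1 and Ngef were the genes called higher. Thy1 (chr9:44043384-44048579, plus strand, GRCm38), a surface protein of fibroblasts, nerve and T cells, was at 25.2, 31.8 and 29 CPM in skin. It was at 25, 38.8 and 30.6 CPM in the muscle-containing wounds of day 7 against 114 CPM in the muscle-free one, and at 43.4 and 27.4 CPM against 73.9 and 99.5 CPM at day 14. Every muscle-free wound was above every muscle-containing wound and every skin library (log2 fold change 1.53, SE 0.21, adjusted p = 0.0313 in edgeR's quasi-likelihood test). Ngef, a guanine nucleotide exchange factor, was at 3.73 CPM against 1.6 to 1.71 CPM at day 7 and at 3.15 and 4.12 CPM against 1.46 and 1.52 CPM at day 14, with skin at 5.76 to 7.55 CPM (log2 fold change 1.22, SE 0.20, adjusted p = 0.0474). Neither call held when the same test was adjusted over the genes outside the muscle lists alone (adjusted p 0.101 for Thy1 and 0.129 for Ngef). With the term for replicate numbers the adjusted p was 0.619 for Thy1 and 0.662 for Ngef, at log2 fold changes of 1.27 and 1.13.

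**Figure D4:**
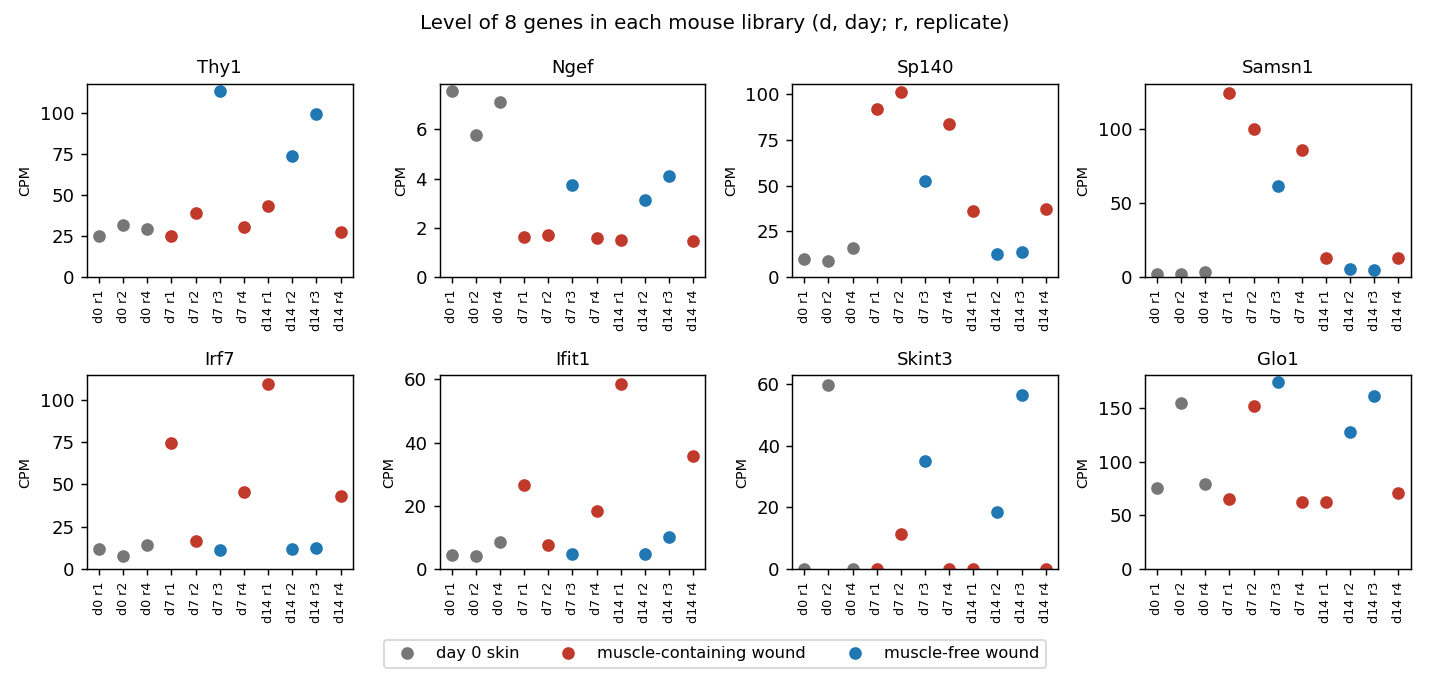
Level of 8 genes in CPM, 1 point per mouse library. Thy1 is highest in the 3 muscle-free wounds at 73.9 to 114 CPM, Irf7 is low in them and in day 7 replicate 2 at 16.7 CPM, and Skint3 and Glo1 are high in every library numbered 2 or 3.

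Interferon response genes had log2 fold changes below 0 in all 19 members tested, with a median log2 fold change of -1.72 against -0.01 over all genes, and 17 of 19 separated the classes at both days, against 7.13% of the genes outside the muscle lists. None passed the test (adjusted p 0.126 to 0.398 in edgeR's quasi-likelihood test), with 19 at an unadjusted p under 0.05. Irf7, a transcription factor that amplifies interferon production, was at 74.5, 16.7 and 45.6 CPM in day 7 replicates 1, 2 and 4 and at 11.3 CPM in the muscle-free replicate 3. At day 14 it was at 109 and 42.9 CPM against 11.5 and 12.1 CPM. Ifit1, which binds foreign RNA, was at 26.7, 7.56 and 18.2 CPM against 4.74 CPM at day 7, and at 58.5 and 35.8 CPM against 4.89 and 10.2 CPM at day 14. Day 7 replicate 2 holds muscle and is numbered 2, and its levels of both genes were nearer the muscle-free wound than the other muscle-containing wounds. With a term for replicate numbers 2 and 3 the median of the list was -0.49, with 15 of 19 members below 0.

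Several other immune lists had medians below 0 that changed with that term, but the mast cell list did not. Its median was 0.18, and 0.54 with the term. The medians of the monocyte and macrophage, antigen presentation, and B and plasma cell lists were -0.26, -0.40 and -0.98. With the term they were 0.30, 0.21 and 0.48. The T and NK cell list had a median of -1.18 with 5 of 18 members separated as lower (7.13% of the genes outside the muscle lists were), and the median was -0.02 with the term. The libraries overlapped at day 14: the list lay at -0.03 in the muscle-free replicate 2 and at -0.26 in the muscle-containing replicate 4, as median log2 deviation from the mean of the day. Cd3e, a part of the T cell receptor complex, was at 0.652 and 0.641 CPM in the muscle-free wounds of day 14 against 2.19 and 0.538 CPM. Cd4, the helper T cell coreceptor, was at 26, 11.9 and 25 CPM against 4.74 CPM at day 7, and at 34.4 and 16.6 CPM against 13.9 and 5.31 CPM at day 14. The neutrophil list had a median of -0.47 and 6 of 19 members separated as lower, against the same 7.13%, and its median was -0.08 with the term. S100a8, a neutrophil calcium-binding protein, overlapped: it was at 839, 323 and 674 CPM against 537 CPM at day 7. Il1b, an inflammatory cytokine chosen after its values were seen, was at 1562, 1084 and 855 CPM against 627 CPM at day 7 and at 75.7 and 87.9 CPM against 27.6 and 11.3 CPM at day 14 (log2 fold change -1.54, SE 0.38). Its adjusted p was 0.19 in edgeR's quasi-likelihood test. The cytokine and chemokine list had a median of -0.59, and 0.09 with the term. No member of these lists passed the test.

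**Figure D5:**
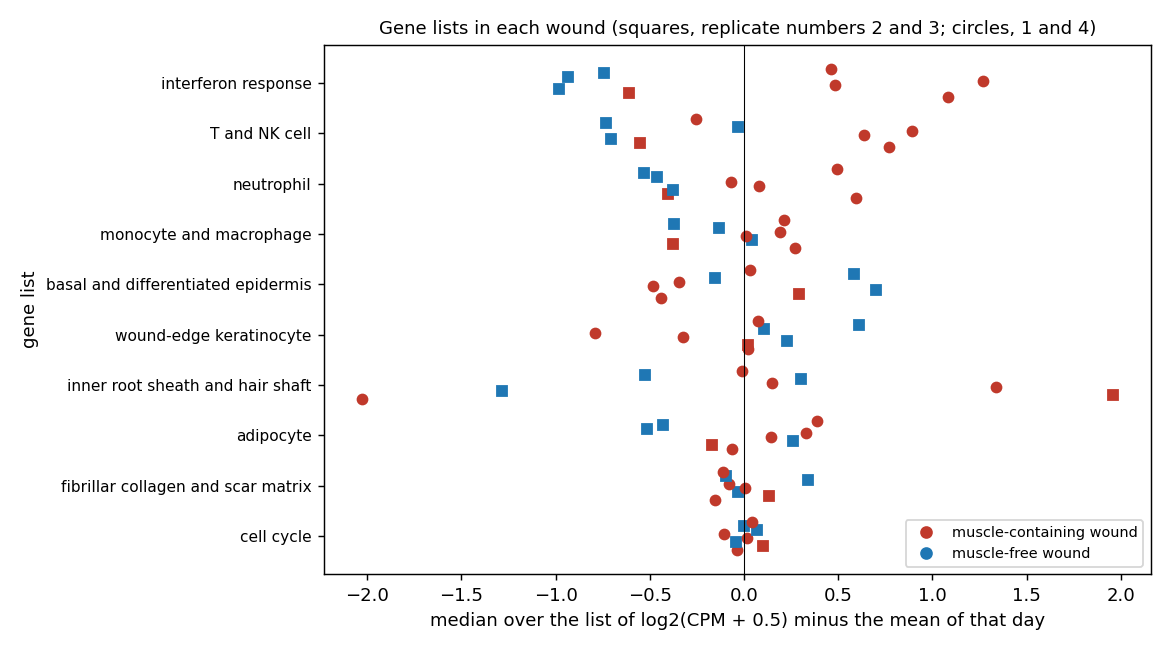
Median over each list of log2(CPM + 0.5) minus the mean of the same day, 1 point per wound, with squares for replicate numbers 2 and 3. For interferon response the 3 muscle-free wounds lie at -0.98 to -0.74, the muscle-containing day 7 replicate 2 at -0.61 and the 4 other wounds at 0.46 to 1.27.

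Keratinocyte lists had medians above 0, with overlap between libraries. In the list of basal and differentiated epidermis 22 of 23 members had log2 fold changes above 0, with a median of 0.66, and 8 of 23 separated the classes as higher, against 7.65% of the genes outside the muscle lists (7.59% of all genes tested). The median was 0.20 with the term for replicate numbers. At day 14 the list lay at -0.16 in the muscle-free replicate 2, below 0.03 in the muscle-containing replicate 4, and at day 7 at 0.29 in the muscle-containing replicate 2, as deviations from the mean of the day. Krt10, a keratin of differentiating epidermis, was at 241, 423 and 183 CPM against 698 CPM at day 7 and at 1009 and 816 CPM against 1177 and 1590.4 CPM at day 14. Krt16, a keratin of wound-edge keratinocytes, was at 1747, 2200.2 and 1628 CPM against 3083 CPM at day 7 and at 578 and 1210.2 CPM against 1243 and 2028 CPM at day 14. The wound-edge list had a median of 0.62, and 0.49 with the term. No member of either list passed the test. Skint1, of the same family as Skint3 and chosen after its values were seen, was at 0.775, 2.52 and 1.1 CPM against 7.45 CPM at day 7 and at 3.71 and 4.07 CPM against 10.6 and 21.7 CPM at day 14 (log2 fold change 2.16, SE 0.36, adjusted p = 0.0556 in edgeR's quasi-likelihood test). With the term for replicate numbers its log2 fold change was 1.26 (adjusted p = 0.841), and with the replicate number as a block 0.27 (adjusted p = 0.861).

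Lists of mitochondrial energy genes had medians near 0, with most members slightly below 0. Of the oxidative phosphorylation genes 26 of 30 had log2 fold changes below 0, and 26 did with the term for replicate numbers. Of the fatty acid oxidation and Krebs cycle genes 21 of 26 did, and 22 with the term. The medians with the term were -0.10 and -0.11. The list of nuclear oxidative phosphorylation genes had a median of -0.13 with 7 of 30 separated as lower, and that of fatty acid oxidation and the Krebs cycle -0.11 with 6 of 26, against 7.13% of the genes outside the muscle lists. Single members lay further out: Cpt1b, the muscle form of the enzyme that passes fatty acids into mitochondria, had a log2 fold change of -3.47, and Cox7b, a subunit of cytochrome c oxidase, 0.85. No member of either list passed the test.

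Lists of scar matrix, proliferation and vessels showed medians close to that of all genes. The fibrillar collagen and scar matrix list had a median of 0.10 over 30 genes, and -0.08 with the term for replicate numbers. The endothelial list had a median of -0.09 over 22 genes, and 0.22 with the term, so both changed sign. Col1a1, the main fibrillar collagen, was at 10073, 12084 and 8788 CPM against 7342 CPM at day 7 and at 9733 and 10116 CPM against 25203 and 15265 CPM at day 14, so it lay on opposite sides at the different days. Col3a1, Postn and Tnc had log2 fold changes of 0.07, 0.01 and 0.41, with SE of 0.14, 0.24 and 0.29. With the term Postn was at -0.65, and Tnc ran from 0.10 to 0.91 with 1 library left out, lowest without day 14 replicate 1 and highest without day 7 replicate 3. The cell cycle list had a median of -0.01, with Mki67, a proliferation marker, at 219 to 258 CPM against 224 CPM at day 7. Pecam1, an endothelial adhesion molecule, had a log2 fold change of -0.12 with an SE of 0.15, and 0.17 with the term, and Acta2, the smooth muscle actin of myofibroblasts, -0.44 with an SE of 0.21.

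Hair follicle and fat genes varied between libraries within a class. Krt25, of the inner root sheath, was at 0.31, 71.7 and 52.1 CPM in the muscle-containing wounds of day 7 and at 2.72 CPM in the muscle-free one. At day 14 it was at 113 and 81.4 CPM against 112 and 62.5 CPM, so the classes overlapped at both days. Adipoq, the adiponectin of fat cells, was at 0.0915 and 0.434 CPM in the muscle-free wounds of day 14 against 8.56 and 10.1 CPM, but at 9.55 CPM against 2.16 to 10.8 CPM at day 7. Neither gene passed the test.

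Whether the class difference changed from day 7 to day 14 was tested as an interaction: 0 of 15529 genes (0%) were called in edgeR's quasi-likelihood test, with 744 at an unadjusted p under 0.05. DESeq2's Wald test called 30 outside the muscle lists.

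The comparison of day 14 with day 7 was also fitted with the class as a term. Over all genes tested 10.6% were lower and 6.87% were higher at day 14. Outside the muscle lists 2694 genes were called, 1633 lower and 1061 higher. Without the class term 2852 were called, and 2469 genes were called in both fits. Among the muscle list genes the median log2 fold change from day 7 to day 14 was 0.30 with the class term and -0.08 without it.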

How the data were processed

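RNA-seq of mouse dorsal skin and wounds was used. The deposited values are the authors' expected counts per gene in the mouse and Acomys tables and whole counts in the table shared by both species. Per the submitters' processing notes, FastQC 0.11.4, Trimmomatic 0.32, RSEM 1.2.28, Bowtie2 and mm9 were used, with roles not given in the sources used here. Spike-in rows were removed, 373 rows sharing a symbol were summed, and expected counts were rounded. Genes were filtered with filterByExpr by day and class, scaled by TMM, and tested with edgeR 4.0.16 (R 4.3.3) by the quasi-likelihood F-test, two-sided, on the 8 wounds, with the Benjamini-Hochberg adjustment. DESeq2 1.42.0 was an alternative. CPM leaves spike-in RNAs out of the total. Genes of the muscle lists were in the fit and in the adjustment (91 genes were called lower over all genes, 31 of them outside the lists), but no p is read for them.

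The members and lists were chosen with earlier results of these data known. Named are 21 fixed genes, the 10 most changed called genes in each direction outside the muscle lists, up to 3 called members of each list in each direction, and the 4 most abundant members of each muscle list, of which those that add to the text are printed; the result for 1 fixed gene is not reported here. On simulated data for the class comparison over 15529 genes, 65% of 100 genes changed 2-fold and 82% of 100 changed 4-fold were recovered. Of these, 0 were in the wrong direction, and 10.4% of calls were false, above the 5% aimed at. The simulated counts held no class difference in the muscle genes and nothing tied to replicate numbers. These rates may therefore not hold for the real comparison. Alternatives are given in the closing section.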

Additional observations from a re-analysis of the deposited data

Results flagged for a closer look

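Within the labelled groups of 4 wounds, 62 groups of values were examined and 4 stood out by a library whose gap to the nearest of the others exceeded Dixon's 95% limit. About 1 in 20 groups does so by chance. Thy1 was at 113.5 CPM in day 7 replicate 3, above 25 to 38.8 CPM in the 3 other wounds of that day. Ngef was at 3.73 CPM in the same library, above 1.6 to 1.71 CPM. That library is the only muscle-free wound of its day, and both genes were called higher in muscle-free wounds. Their flags are thus partly fixed by that call, and the rate of 1 in 20 does not apply to them. The explanation was not tested. Klhl31 was at 81 CPM in day 14 replicate 1, above 0 to 13.4 CPM in the others. Mki67 was at 165 CPM in day 14 replicate 2, above 146 to 148 CPM.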

How the results depend on the processing

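The count of genes outside the muscle lists, 31 lower and 2 higher, depended on the processing. It was 0 and 0 with the replicate block and within day 14 alone. It was also 0 and 0 with the muscle lists removed before the fit. That took them out of the library sizes and also out of the adjustment (15410 genes tested), while Thy1 stayed at 1.52 on the log2 scale. In fits chosen after seeing the data, the count was 0 and 0 with a term for replicate numbers 2 and 3. The count was likewise 0 and 0 with p adjusted over the genes outside the lists. It was 245 and 92 with DESeq2, 88 and 30 with all 11 libraries, 11 and 0 with a 2-fold minimum, 83 lower with log2 Acta1 as a number and 1 higher in the table shared by both species. Leaving out each library gave 0 to 108 lower and 0 to 45 higher: 0 and 0 without day 7 replicate 1 or 3 or day 14 replicate 2 or 3, 108 and 45 without day 7 replicate 2, 11 and 0 without day 7 replicate 4, 75 and 0 without day 14 replicate 4, and 1 higher without day 14 replicate 1. The cause was not tested. In all of these fits the 33 genes kept their direction where they were fitted.

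The same replicate number does not pair the samples by the rule used (every correlation of deviations over 0.1). With the day means removed, the 4 pairs of day 7 and day 14, numbered 1 to 4, correlated by 0.407, 0.014, 0.593 and 0.29. The libraries of a pair shared a class for numbers 1, 3 and 4, but not for number 2. With class removed as well, the values were 0.115, 0.165, -0.187 and 0.0362. Day 7 replicate 3 and day 14 replicate 1, of unlike numbers, then correlated by 0.505. Removing day and class makes the deviations sum to 0 within each day and over the muscle-free libraries. The values that involve day 7 replicate 3, -0.187 and 0.505, are thus partly fixed by the fit and say little about pairing. Pairing is not settled. Some genes follow the number at all 3 days, and the labels do not say what a number marks. With the block Thy1 was at 0.77, Ngef at 0.85, Pecam1 at 0.56 and Postn at -0.35 on the log2 scale. The 0 genes of the class by day interaction became 30 with DESeq2 and stayed at 0 to 1 with a library left out; day 7 replicate 3 could not be left out of it. The 2694 genes of the day comparison became 200 with a 2-fold minimum and 1095 to 2864 with a library left out, lowest without day 14 replicate 1.

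Some muscle list genes changed sign. With the replicate block Myh3, Dysf, Musk and Rapsn were at 0.54, 0.38, 0.78 and 0.38 on the log2 scale. Without day 7 replicate 3, and likewise within day 14 alone, Myh3 was at 1.08 and 1.07, Chrna1 at 0.39 and 0.38, Ncam1 at 0.47 and 0.46, and Ache at 0.25 and 0.24. Ncam1 was at 0.16 without day 7 replicate 2, 0.083 with no wound day and 0.0015 with log2 Acta1. Over the fits that leave out a library, Myh3 ran from -3.11 to 1.08, Chrna1 from -0.89 to 0.39, Ncam1 from -0.30 to 0.47 and Ache from -1.01 to 0.25. With the replicate number term Dysf was at 0.20 and Rapsn at 0.23.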
